A study of Mus musculus with 576 samples.

Results

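Retinoic acid is handled by a small set of enzymes, receptors and binding proteins, and 10 of their genes were followed here by symbol in all 3 count tables: the synthesis genes Aldh1a1, Aldh1a2 and Aldh1a3, the breakdown genes Cyp26a1 and Cyp26b1, the receptor genes Rara, Rarb and Rarg, and the binding protein genes Crabp1 and Crabp2. The tables list 36658 genes, and all 10 were found. The cells were GFP+ cells that had been sorted from dorsal pancreas dissected from mice at embryonic day 12.5, on a C57BL/6J background with both sexes mixed, and each was sequenced by Smart-seq2, a full-length single-cell RNA method. They came from 3 lines, each sorted into 2 plates of 96 wells. In Nkx2.5-Cre;mTmG embryos (plates 6A and 6B) and Nkx3.2-Cre;mTmG embryos (plates 7A and 7B), Cre recombinase under the named gene switches a reporter from Tomato to GFP, so that descendants of the Cre-expressing cells stay marked. Prox1-GFP embryos (plates 8A and 8B) carry GFP from a bacterial artificial chromosome with Prox1 regulatory sequence, which marks cells while it is active. Since neither embryos nor litters are named in the labels, a line counts as 1 sample and nothing was tested across cells. Each line has plates of its own, so that plate and line cannot be told apart in any comparison of lines. Library numbers of the Prox1 plates also form a series of their own, so that for these plates the batch and the line cannot be told apart.

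Retinoic acid is made from vitamin A in a pair of oxidation steps, of which the second is carried out by the retinaldehyde dehydrogenases encoded by the Aldh1a genes. It diffuses to nearby cells, where cellular retinoic acid binding proteins carry it and RAR receptors, paired with RXR receptors, bind it at DNA elements made of repeated half-sites. Cyp26 enzymes oxidise it, and so limit how far it acts. In the developing pancreas, retinoic acid is known as a signal from the surrounding mesoderm that the foregut endoderm needs for the dorsal bud to form.

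The levels given are CPM, the usual per-library-size scale, computed on counts summed over a group of cells, and a cell was said to hold a gene at 1 estimated count or more. In all, 549 cells passed the study's filters and 27 did not, with totals between 224814 and 1512736 counts per cell. By lists of marker genes, and by clusters drawn without any of the 10 genes, 88 cells were epithelial-like, 19 endocrine-like, 28 mesothelial-like and 413 mesenchymal-like, and 1 Prox1-line cell with leading immune markers was set aside. Epithelial-like and endocrine-like cells came from the Prox1 line alone, and mesothelial-like cells from the Nkx3.2 line (23, of which 20 on plate 7B) and the Nkx2.5 line (5). Pdx1, the transcription factor that marks pancreatic epithelium, was at 136.1 CPM in epithelial-like cells and at 0 in mesothelial-like and mesenchymal-like cells. Cdh1, which encodes E-cadherin, was at 354 CPM in epithelial-like cells and 0.0563 CPM in mesenchymal-like cells. Of 8 mesothelial markers, 6 were higher in mesothelial-like than in mesenchymal-like cells, Upk3b among them at 572 against 0.0105 CPM, while Nkain4 was lower at 10.4 against 82.3 CPM and Msln was at 1.04 against 1.64 CPM. All 8 mesenchymal markers were higher in mesenchymal-like cells, from Pdgfra at 191.4 against 0 CPM to Col1a2 at 1004 against 990.5 CPM. Of 5 endothelial markers, Cdh5 was at 0 in all 4 states, Plvap, Tie1 and Kdr were at or below 7.19 CPM, and Pecam1 was at 32.6 to 46.3 CPM. Intervals in the text are exact 95% Poisson intervals for levels and exact 95% binomial intervals for shares, and both cover counting error only, since the method has no molecular identifiers and counts PCR copies. Where no cell held a gene, the share said to be allowed is 3 cells of all cells looked at, a simpler limit than the exact binomial one and somewhat below it.

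The control sequence of the genes is shown first, because a receptor gene and a breakdown gene among the 10 are known to answer to retinoic acid itself. Promoters of 300 bases, from 250 before to 50 after the gene start, were available for 8 of the 10 genes (13 promoters, RefSeq, GRCm38.p6), all but Aldh1a3 and Crabp2. The start is that of a RefSeq transcript, and for Rarb it lies inside the longer GENCODE span of the gene given further on. They were searched on both strands for pairs of the half-sites AGGTCA and its variant AGTTCA, and likewise GGGTCA and its variant GGTTCA, in the same direction, 1, 2 or 5 bases apart, and pairs of different spacing could share a half-site. A pair 5 bases apart was found for Rarb, where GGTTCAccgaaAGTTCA runs from 53 to 37 bases before the start on the gene's own strand, and for Cyp26a1, where it lies on the other strand from 32 to 16 bases before the start. Such a pair was in 32 of 32851 mouse promoters of the same length (0.0974%), and a pair of any of the 3 spacings in 0.588% of them. The other 6 genes, Cyp26b1 among them, held no pair of these letters in this window. The 250 bases before each start are given below 5′ to 3′ on the gene's strand for Rarb (chr14:16575477-16575726, minus strand), Cyp26a1 (chr19:37697558-37697807, plus strand) and, for contrast, Cyp26b1 (chr6:84593811-84594060, minus strand), with the half-sites of a pair in capitals.
Rarb: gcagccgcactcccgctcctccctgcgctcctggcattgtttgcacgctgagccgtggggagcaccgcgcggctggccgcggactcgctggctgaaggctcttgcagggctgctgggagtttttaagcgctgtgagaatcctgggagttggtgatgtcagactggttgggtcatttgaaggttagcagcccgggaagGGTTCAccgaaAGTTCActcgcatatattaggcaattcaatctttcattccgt
Cyp26a1: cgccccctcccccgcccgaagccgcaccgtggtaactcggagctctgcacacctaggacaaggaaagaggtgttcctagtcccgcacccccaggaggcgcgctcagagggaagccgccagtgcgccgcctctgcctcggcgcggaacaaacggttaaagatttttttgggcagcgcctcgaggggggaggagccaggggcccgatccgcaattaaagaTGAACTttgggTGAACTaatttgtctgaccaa
Cyp26b1: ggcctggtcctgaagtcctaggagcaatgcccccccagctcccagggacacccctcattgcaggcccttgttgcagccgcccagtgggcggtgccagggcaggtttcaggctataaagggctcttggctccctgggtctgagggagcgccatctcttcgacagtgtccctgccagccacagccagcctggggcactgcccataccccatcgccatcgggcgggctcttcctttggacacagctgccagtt

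Across the 4 states, the synthesis gene Aldh1a2 and the breakdown gene Cyp26b1 had their highest levels in different states. Aldh1a2 was highest in mesothelial-like cells, Cyp26b1 was counted in mesenchymal-like cells alone, and neither was counted in any epithelial-like or endocrine-like cell. Rara was counted in all 4 states, Rarb in mesothelial-like and mesenchymal-like cells with 1 epithelial-like cell besides, and Crabp2 was higher in mesothelial-like and mesenchymal-like cells than in the epithelium.

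**Figure D1:**
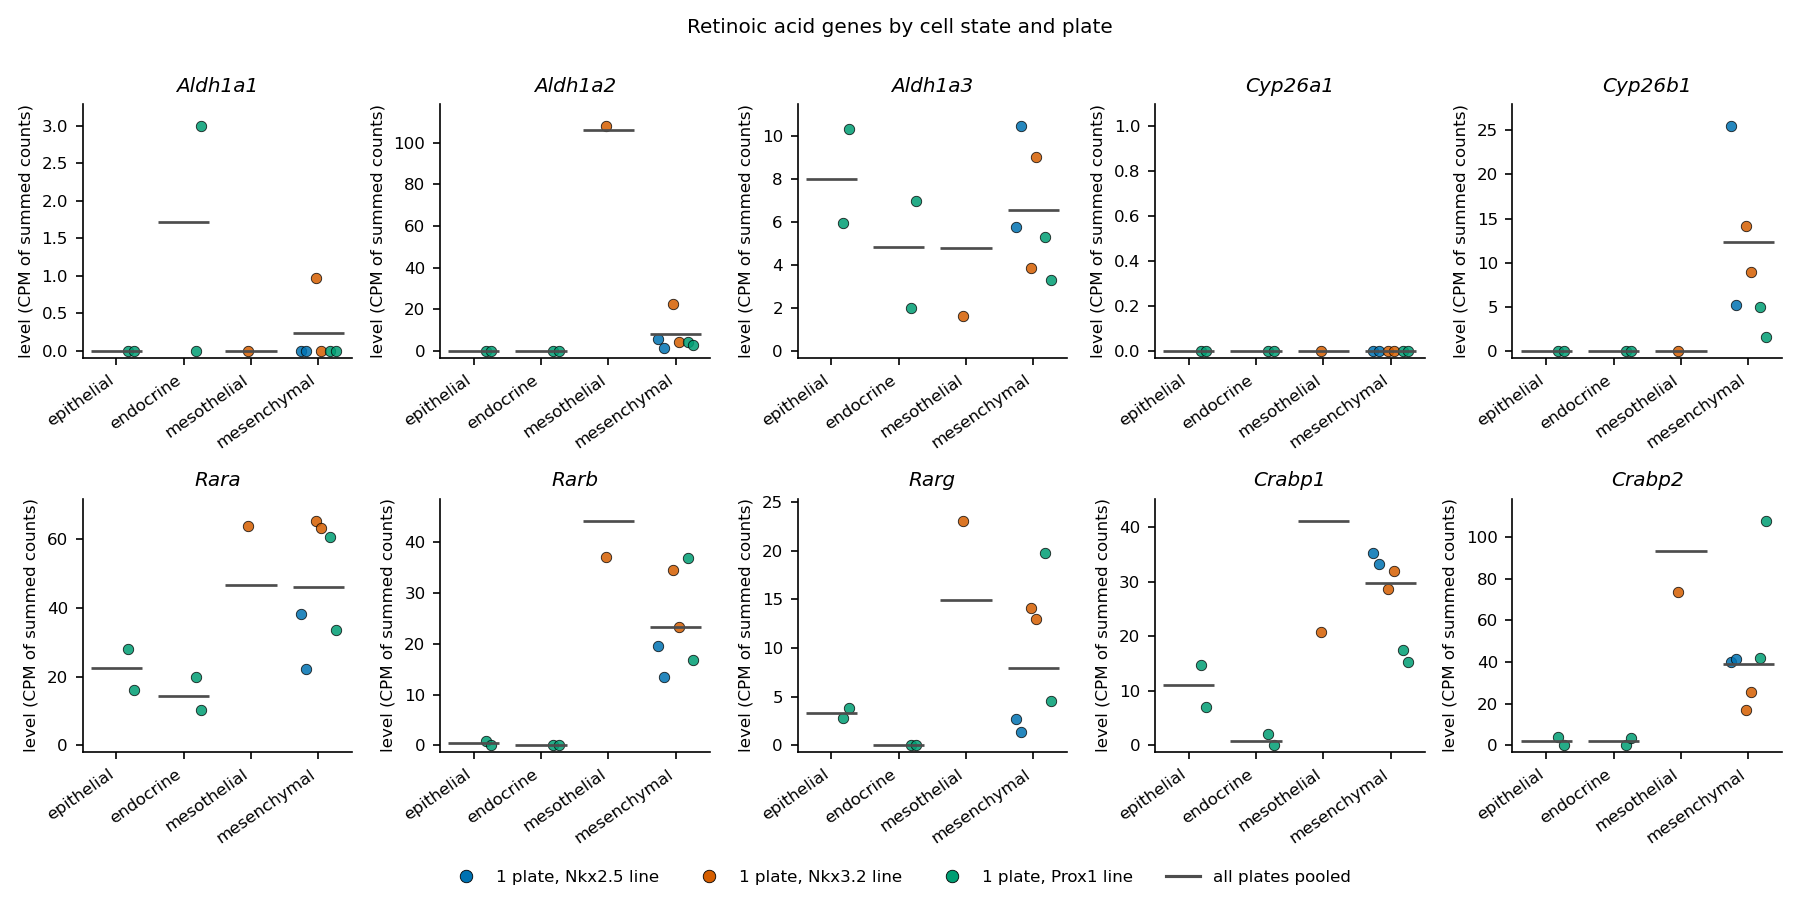
Level of each of the 10 genes (CPM of summed counts, linear axis from 0) in epithelial-like, endocrine-like, mesothelial-like and mesenchymal-like cells. Each point is 1 plate with at least 5 cells of that state, coloured by line, and the line is the level over all plates. Aldh1a2 stands at 106.1 CPM in mesothelial-like cells and 8.23 CPM in mesenchymal-like cells, and Cyp26b1 is above 0 in the mesenchymal-like column alone.

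Aldh1a2 (Raldh2; GENCODE M21, GRCm38, chr9:71215789-71296243, plus strand) encodes the main retinaldehyde dehydrogenase of the embryonic mesoderm. It was held by 28 cells, of which 14 were mesothelial-like and 14 mesenchymal-like. Over mesothelial-like cells its level was 106.1 CPM (102.1–110.3), and 14 of 28 cells held it. In the Nkx3.2 line it was at 199.8 CPM in the 3 mesothelial-like cells of plate 7A, of which 2 held it, and at 107.9 CPM in the 20 of plate 7B, of which 10 held it. In the Nkx2.5 line it was at 36.2 CPM, from 2 of 5 cells. The mesothelial-like cells that held the gene ranged from 0.877 to 1343 CPM with a median of 100.04, so the level varied widely within the state. In mesenchymal-like cells it was at 5.90 CPM on plate 6A, 1.48 on 6B, 22.4 on 7A, 4.11 on 7B, 4.20 on 8A and 2.70 on 8B. These were low and came from few cells, with 14 of 413 holding the gene (3.39%, 1.87–5.62). A single cell of plate 7A, at 1471 CPM, held 56.8% of all mesenchymal counts of Aldh1a2 and stood above every mesothelial-like cell. None of the 88 epithelial-like cells held it, which allows a share of up to 3.41%, and none of the 19 endocrine-like cells, which allows up to 15.8%.

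The other dehydrogenases gave little. Aldh1a1 (chr19:20492715-20643465, plus strand) was held by 2 cells, a mesenchymal-like cell of plate 7A at 93.5 CPM and an endocrine-like cell of plate 8B at 38.8 CPM. Of its 31-base words, 5.70% are shared with other genes, most with its neighbour Aldh1a7. Aldh1a3 (chr7:66390890-66427517, minus strand) was listed at 7.97 CPM in epithelial-like, 4.84 in endocrine-like, 4.77 in mesothelial-like and 6.56 in mesenchymal-like cells, and between 46.4% and 55.7% of the cells of each state held it. Of its 302 values above 0, 96.0% are not whole, at a tolerance of 0.01, and 2.26% of its 31-base words are shared with other genes, most with Casc4, which stood between 52.2 and 82.3 CPM in the 4 states. How much of the Aldh1a3 value is reads of other genes cannot be told apart in these tables, and its levels are uncertain.

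Of the breakdown genes, Cyp26a1 (chr19:37697798-37701536, plus strand) was at 0 in every cell of every state, 0 of 413 mesenchymal-like cells among them, which allows a share of up to 0.726%. Its promoter carries the pair of half-sites shown above. Cyp26b1 (chr6:84571414-84593908, minus strand) encodes another retinoic acid hydroxylase of the embryo, and was held by 79 cells, all of them mesenchymal-like (19.1%, 15.4–23.3), at 12.3 CPM. It was at 25.4 CPM on plate 6A with 23 of 87 cells, 5.16 on 6B with 8 of 81, 14.2 on 7A with 19 of 92, 8.91 on 7B with 23 of 76, 5.0 on 8A with 3 of 33 and 1.62 on 8B with 3 of 44. Plate 6A thus had the highest level and 6B a lower one than either Nkx3.2 plate, and both Prox1 plates were the lowest. None of the 28 mesothelial-like cells held it, which allows a share of up to 10.7%, and none of the 88 epithelial-like or 19 endocrine-like cells.

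Because a sink beside a source would shape where retinoic acid acts, the 2 genes were also set side by side in single cells. Among 413 mesenchymal-like cells, 14 held Aldh1a2, 79 held Cyp26b1 and 1 held both (0.242%, 0.00613–1.34), where the product of the shares gives 2.68 cells. That count of 1 was the same when a gene had to have 10 counts and when each cell was thinned to 100000 counts. With so few Aldh1a2 cells, a difference from the product was not detectable. Among 28 mesothelial-like cells, 14 held Aldh1a2 and 0 held Cyp26b1.

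**Figure D2:**
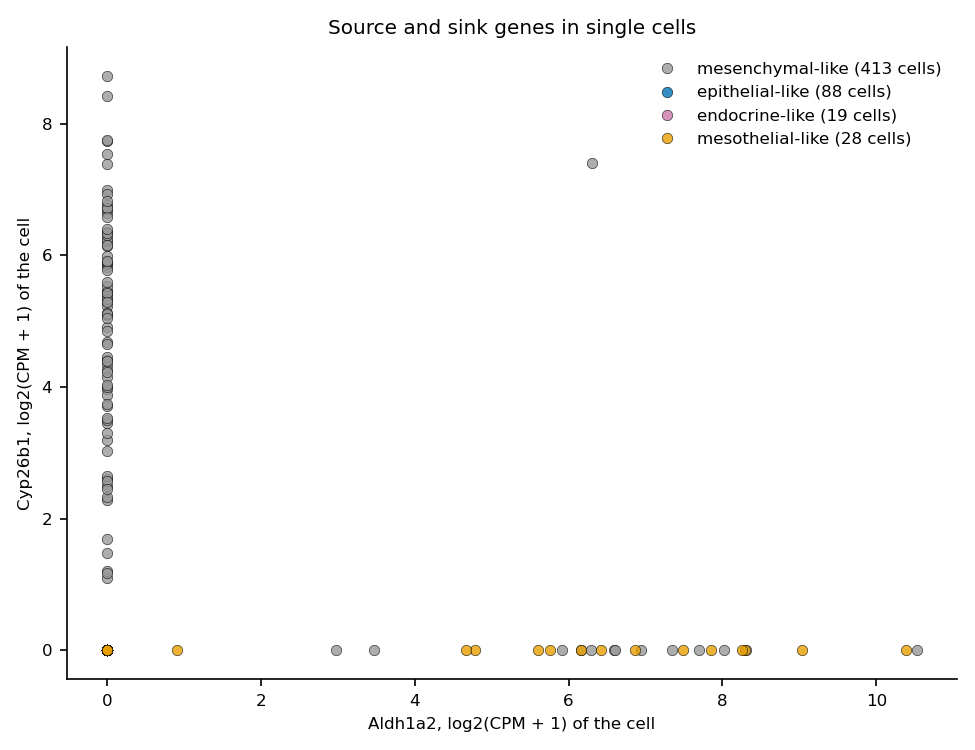
Cyp26b1 against Aldh1a2 in each cell, both as log2(CPM + 1), coloured by state. Cells holding either gene lie along one axis or the other, with 1 mesenchymal-like cell off both. All epithelial-like and endocrine-like cells lie at the origin under other points. So do the cells of the other states that held neither gene, 321 of 413 mesenchymal-like and 14 of 28 mesothelial-like cells.

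The mesothelium against the mesenchyme was compared within the Nkx3.2 line, with 23 mesothelial-like cells. A gene was called higher or lower when its CPM differed by a ratio of at least 2 in the pool and on each plate with at least 5 cells of both states, here plate 7B alone, among genes at 5 CPM or more on either side. Of 8 genes tested, 2 were called higher and 2 lower, where 23.8% of all 11906 genes tested were called (11.8% higher and 12% lower). Aldh1a2 was higher at 124.6 against 15.2 CPM, a ratio of 8.18 (7.72–8.67), and of 26.3 on plate 7B. Without the 1 mesenchymal-like cell that held most of its counts, the ratio was 36.4. Crabp2 was higher at 69.7 against 20.2 CPM, a ratio of 3.45 (3.24–3.68), and of 2.89 on plate 7B. Without mesenchymal-like cells scored S or G2/M, and with all mesothelial-like cells kept, its ratio was 2.31 and it was not called. Cyp26b1 was at 0 against 12.1 CPM, at least 77.4-fold lower against a floor of 3 counts over the group. The uncertain Aldh1a3 was 3.56-fold lower, at 1.65 against 5.87 CPM. The 3 receptors differed by less than 2-fold between the states. Rara stood at 57.2 against 64.4 CPM, Rarb at 55.9 against 30.2 and Rarg at 18.8 against 13.7, and none was called.

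The epithelium against the mesenchyme was compared within the Prox1 line, where both were sorted onto the same plates (88 and 77 cells). Of 6 genes tested, 2 were called lower in the epithelium and 0 higher, where 23.7% of all 12116 genes tested were called (12.4% higher and 11.3% lower). Crabp2 was at 4.04 CPM on plate 8A and 0.0287 on 8B in epithelial-like cells against 41.7 and 107.6 in mesenchymal-like cells, 37.4-fold lower over both plates. Rarb was at 0.511 against 24.97 CPM, 48.9-fold lower, and 1 of 88 epithelial-like cells held it. On plate 8A it was 38.4-fold lower, at 0.960 against 36.8 CPM. On plate 8B no epithelial-like cell held it, and with a floor of 3 counts over the group it was 196.4-fold lower. That fold depends on the floor and is not a lower bound. Rara was at 28.1 and 16.02 CPM on the plates in epithelial-like cells against 60.4 and 33.5, a ratio of 0.506 (0.476–0.538), just short of the threshold of 2 in the pool. On each plate alone Rara would be called, at ratios of 0.466 on 8A and 0.478 on 8B. Crabp1 was at 11.1 against 16.2 CPM and Rarg at 3.31 against 10.7, and neither was called. The plates differed for both, with Rarg at a ratio of 0.143 on plate 8A and 0.840 on 8B and Crabp1 at 0.844 and 0.459, so that Rarg would be called on plate 8A alone and Crabp1 on 8B alone. The uncertain Aldh1a3 was at 7.97 against 4.10 CPM, a ratio of 1.94, and was not called. Its ratio was 1.12 on plate 8A and 3.12 on 8B, so that it would be called higher on 8B alone. Aldh1a2 and Cyp26b1 were under 5 CPM on both sides in this line and were not tested. Of the epithelial cells, the endocrine-like ones (19 against 88) had Crabp1 at 0.888 against 11.1 CPM, 12.5-fold lower, the 1 call among 3 genes tested, where 31.5% of 12404 genes were called (14.4% higher and 17.1% lower). That level came from 1 of 19 cells against 23 of 88. Rara was at 14.3 against 22.5 CPM with no call.

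**Figure D3:**
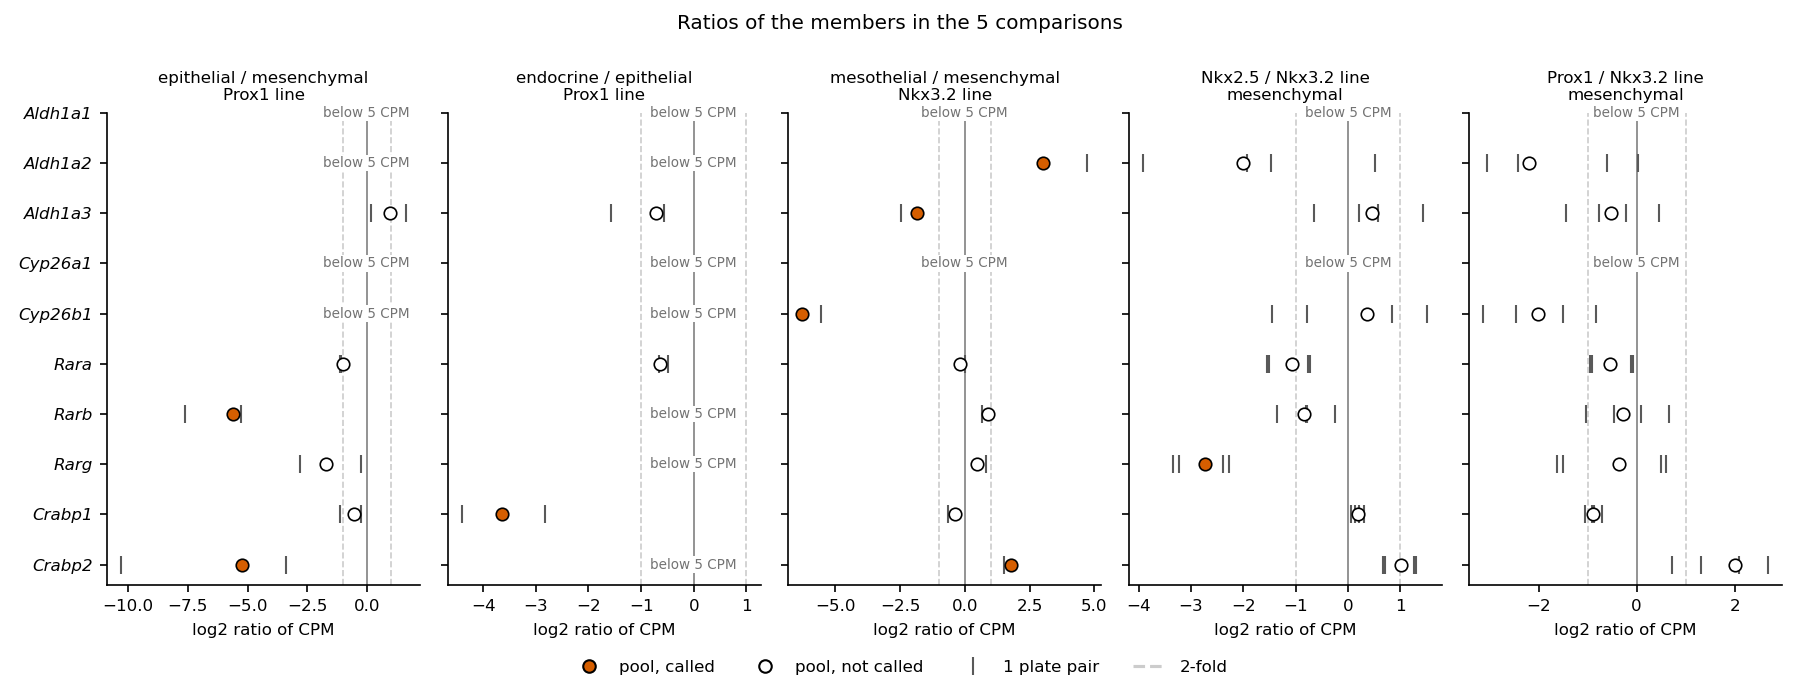
Log2 ratio of CPM of each gene in the 5 comparisons (the axes differ in range). Circles are the pooled ratio, filled where called, ticks are single pairs of plates, and dashed lines mark a 2-fold difference. Rarg lies left of the dashed line in every plate pair of the Nkx2.5 against the Nkx3.2 line, and Aldh1a2 and Cyp26b1 lie on opposite sides of 0 in the mesothelial comparison.

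Of the receptors, Rara was the most widely held in all 4 states. Rara (chr11:98927818-98974942, plus strand), the broadly expressed retinoic acid receptor, was held by 259 of 413 mesenchymal-like, 21 of 28 mesothelial-like, 51 of 88 epithelial-like and 7 of 19 endocrine-like cells, at 46.04, 46.5, 22.5 and 14.3 CPM. In mesenchymal-like cells it was at 38.2 CPM on plate 6A, 22.1 on 6B, 65.2 on 7A, 63.2 on 7B, 60.4 on 8A and 33.5 on 8B. Both Nkx2.5 plates and both Prox1 plates lay below both Nkx3.2 plates, and plate 8B lay between the Nkx2.5 plates. Rara was held by 36.9% of Nkx2.5-line cells, 87.5% of Nkx3.2-line cells and 64.9% of Prox1-line cells, and after thinning each cell to 100000 counts by 29.2%, 77.98% and 54.5%.

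Rarb (chr14:16430839-16819156, minus strand) is the receptor gene known to be switched on by retinoic acid through the repeat shown above. In mesenchymal-like cells it was at 19.7 CPM on plate 6A, 13.6 on 6B, 34.5 on 7A, 23.4 on 7B, 36.8 on 8A and 16.9 on 8B, and 92 of 413 cells held it (22.3%). In mesothelial-like cells it was at 140.4 CPM on plate 7A and 37.1 on 7B, from 12 of 23 Nkx3.2-line cells, while none of the 5 Nkx2.5-line cells held it. Its values may share reads with other genes. Of its 31-base words, 35.7% are shared with other genes, most with Top2b, and 77.4% of its values above 0 are not whole. Top2b stood at 135.3 CPM in epithelial-like, 151.7 in endocrine-like, 206 in mesothelial-like and 202 in mesenchymal-like cells, where Rarb stood at 0.511, 0, 44.2 and 23.3 CPM. Top2b was thus high in the epithelium, where Rarb was at or near 0, and the Rarb levels in the other states are uncertain in size.

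Rarg (chr15:102234938-102257517, minus strand), the third receptor gene, was the sparsest of the receptors in mesenchymal-like and mesothelial-like cells. It was held by 49 of 413 mesenchymal-like, 4 of 28 mesothelial-like, 9 of 88 epithelial-like and 0 of 19 endocrine-like cells. In mesenchymal-like cells it was at 2.69 CPM on plate 6A, 1.38 on 6B, 14.1 on 7A, 12.97 on 7B, 19.7 on 8A and 4.58 on 8B. All of the Nkx2.5-line values lay below all of the others.

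Per length of transcript, Crabp2 and Crabp1 stood highest of the 10 in mesothelial-like and mesenchymal-like cells pooled over lines. In mesothelial-like cells Crabp2 stood at 99.99 CPM per kb, Crabp1 at 51.2, Aldh1a2 at 46.9, Rarb at 14.2, Rara at 13.7 and Rarg at 5.05. In the 23 of the Nkx3.2 line alone, Aldh1a2 at 55.04 lay above Crabp1 at 28.9. In mesenchymal-like cells the levels were 41.7 CPM per kb for Crabp2, 37.1 for Crabp1, 13.6 for Rara, 7.51 for Rarb, 3.64 for Aldh1a2, 2.74 for Cyp26b1 and 2.70 for Rarg, and the place of Aldh1a2 in this order rests on the 1 cell with 56.8% of its counts. In epithelial-like cells Crabp1 led, at 13.9 CPM per kb, ahead of Rara at 6.64 and Crabp2 at 2.32. In endocrine-like cells Rara led at 4.24 with the plates pooled. On plate 8B alone Crabp2, held there by 1 cell, lay above Rara per length of transcript. The plates overlapped for Crabp1 and Crabp2 in the mesenchyme, so their order there does not hold beyond the spread. In mesenchymal-like cells of plate 7A, Rara also lay above Crabp2 per length of transcript.

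Crabp1 (chr9:54764748-54773110, plus strand), one of the paired carriers of retinoic acid in the cytoplasm, was held by 140 of 413 mesenchymal-like and 13 of 28 mesothelial-like cells. In mesenchymal-like cells it was at 35.2 CPM on plate 6A, 33.3 on 6B, 28.7 on 7A, 32.01 on 7B, 17.4 on 8A and 15.3 on 8B, so that both Prox1 plates lay below the other 4. Crabp2 (chr3:87948666-87953376, plus strand), the carrier known to hand retinoic acid to the receptors, was held by 27.4% of 413 mesenchymal-like and 21 of 28 mesothelial-like cells. Its levels in mesenchymal-like cells were 40.2 CPM on 6A, 41.2 on 6B, 16.8 on 7A, 25.4 on 7B, 41.7 on 8A and 107.6 on 8B. Both Nkx3.2 plates were the lowest, and plate 8B stood apart at the top.

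Between lines, mesenchymal-like cells of the Nkx2.5 and Nkx3.2 lines, equal in number, were compared over all 4 pairs of plates, to ask whether the descendants of Nkx2.5- and Nkx3.2-expressing cells differ in these genes. Of 8 genes tested, Rarg alone was called, where 3.9% of 11361 genes tested were called (1.51% higher and 2.39% lower). It was at 2.06 against 13.7 CPM, 6.62-fold lower in the Nkx2.5 line, and the ratio lay between 0.0980 and 0.208 over the plate pairs. It was held by 6 cells (3.57%) against 33 cells (19.6%). Rara was lower in all 4 pairs, at 30.5 against 64.4 CPM (ratios 0.340–0.604), and was not called. Crabp2 was higher in all 4 pairs, at 40.7 against 20.2 CPM (ratios 1.58–2.45), and was not called. Crabp1 was at 34.3 against 29.98 CPM and Cyp26b1 at 15.7 against 12.1 CPM, the latter with ratios from 0.363 to 2.86 over the plate pairs. Aldh1a2 was at 3.77 against 15.2 CPM, a ratio of 0.248 that became 1.1 without the 1 cell of plate 7A. The median number of genes found per mesenchymal-like cell was 5745.5 in the Nkx2.5 line and 7221 in the Nkx3.2 line, with median totals of 1054465 and 897271 counts, and the part of this in the receptor values was not tested.

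The Prox1 line held 77 mesenchymal-like cells and was compared with the Nkx3.2 line in the same way. Of 8 genes tested, 0 were called, where 3.67% of 11432 genes tested were called (1.49% higher and 2.19% lower). No test was made behind this count, and several genes lay apart by size. Crabp2 was higher in all 4 pairs, at 81.01 against 20.2 CPM (ratios 1.64–6.39). Cyp26b1 was lower in all 4 pairs, at 2.98 against 12.1 CPM (ratios 0.114–0.561), and Crabp1 was lower in all 4 at 16.2 against 29.98 CPM (ratios 0.479–0.608). The Nkx3.2 plates are the same in both comparisons of lines, and the cluster makeup differed between lines, as follows.

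Within the mesenchyme, clusters were named as far as their markers allowed, with the names the study gives its mesenchymal types. They were M-SpP-like (62 cells, for splenopancreatic), M-VSM-like (43 cells, for vascular smooth muscle), M-III-like (25 cells) and proliferating-like (75 cells), while 208 cells in 3 clusters stayed unnamed. The marker lists are partly the study's own, made on these same cells, and the study's tables list Cyp26b1 for M-SpP, Crabp2 for M-II, Rara for M-III and Rarb for a proliferating type, so the direction of these is not independent evidence. M-SpP-like cells came from the Nkx2.5 line (20, of which 19 on plate 6A) and the Nkx3.2 line (41), with 1 Prox1-line cell of plate 8B besides. M-VSM-like cells came mostly from the Nkx3.2 line (35) and M-III-like cells mostly from the Prox1 line (17).

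Cyp26b1 was highest in M-SpP-like cells, at 35.9 CPM with 33 of 62 cells holding it (53.2%, 40.1–66.02), against 8.03 CPM in the other 351 mesenchymal-like cells, a ratio of 4.47. In the Nkx2.5 line it was at 57.1 against 10.3 CPM, a ratio of 5.57, and in the Nkx3.2 line at 25.1 against 7.79 CPM, a ratio of 3.22. It was at 10.5 CPM in proliferating-like, 8.77 in unnamed and 3.26 in M-VSM-like cells, and 0 of 25 M-III-like cells held it. The ratio rests on where the cluster is drawn: with 10 in place of 20 principal components the nearest cluster shared 53.2% of these cells and the ratio was 1.31. Plate 6A had 19 of the 20 M-SpP-like cells of its line and the higher Cyp26b1 level of its line, and the part of cluster makeup in that difference between plates was not tested.

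The same relation was also read from single markers, with no cluster drawn. These 8 markers are the M-SpP list, which comes in part from the study's own results on these cells. Since the study lists Cyp26b1 for M-SpP as well, this reading is not independent evidence either. Tlx1, a homeobox gene that the spleen needs to form, was found beside Cyp26b1 in 42 mesenchymal-like cells, or 36.2% of cells with Tlx1, against 37 of 297 cells without Tlx1 (12.5%). The Cyp26b1 level was 29.6 against 5.10 CPM, a ratio of 5.82 over all lines, with 8.59 for Nkx2.5-line, 3.28 for Nkx3.2-line and 3.91 for Prox1-line cells. The Prox1-line ratio rests on 2 of 13 cells with Tlx1 and 4 of 64 without. Median totals were 980696 and 914027 counts per cell. Kazald1 gave a ratio of 5.11 with 63 of 202 against 16 of 211 cells, Slc40a1 3.33, Robo2 3.13, Nkx2-5 1.95, Ntm 1.71 and Npnt 1.47, while Tcf21 gave 0.447. Cyp26b1 was thus higher beside 7 of the 8 M-SpP markers with the lines pooled, most beside Tlx1 and Kazald1. Within lines its level was higher beside 7 in the Nkx2.5, 6 in the Nkx3.2 and 5 in the Prox1 line. The Prox1-line count rests on 6 cells with Cyp26b1. There the share of cells holding Cyp26b1 ran opposite to its level for Nkx2-5 (7.69% with the marker against 7.84% without), Ntm (7.5% against 8.11%) and Slc40a1 (8.16% against 7.14%). The ratio was 0.823 for Npnt in the Nkx3.2 line and 0.320 for Slc40a1 in the Prox1 line, and in that line 0 of 7 cells with Robo2 held Cyp26b1 against 6 of 70 without.

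**Figure D4:**
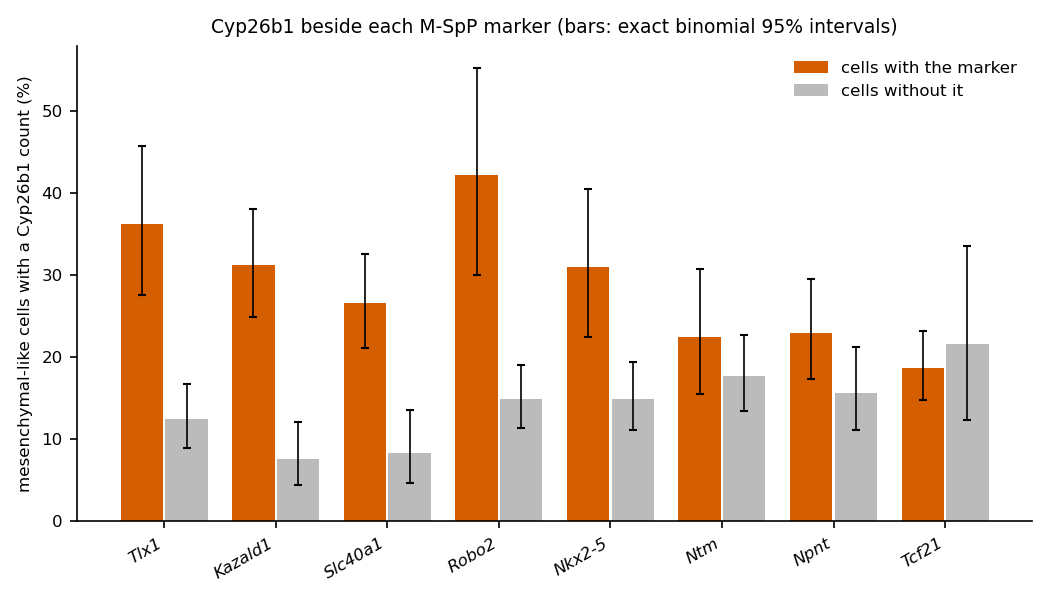
Share of mesenchymal-like cells holding Cyp26b1 among cells with at least 1 count of each M-SpP marker and among cells without it, with exact 95% binomial intervals that cover counting error only. The share is 36.2% against 12.5% for Tlx1, and for Tcf21 the share without the marker is the higher.

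M-VSM-like cells, as clustered here, had the receptors higher and the binding proteins lower than the rest of the mesenchyme. Rarb was at 73.2 CPM with 19 of 43 cells holding it, a ratio of 4.09 to the other mesenchymal-like cells, and of 2.22 within the Nkx3.2 line alone, at 53.7 CPM. Rara was at 80.9 CPM with 40 of 43 cells, a ratio of 1.92, and Rarg at 24.4 CPM with 14 of 43 cells, a ratio of 3.94. Crabp2 was at 3.02 CPM with 5 of 43 cells, a ratio of 0.0707, and Crabp1 at 10.2 CPM with 6 of 43 cells, a ratio of 0.321. Within the Nkx3.2 line the ratios were 0.152 for Crabp2, at 3.71 against 24.4 CPM, 0.352 for Crabp1, 1.39 for Rara and 2.80 for Rarg. Aldh1a2 was at 56.8 CPM, but 83.8% of its counts lay in 1 cell, without which its ratio to the rest fell from 19.3 to 3.23. At a clustering resolution of 0.8, 34 of the 43 M-VSM-like and 22 of the 25 M-III-like cells made up 1 cluster of 56 cells, where Crabp2 had a ratio of 0.556 and Rarb of 3.27. With 10 principal components the nearest cluster, of 44 cells, was again a mixture, of 22 M-VSM-like and 22 M-III-like cells, and its ratios were 0.747 for Crabp2 and 1.92 for Rarb. In the 6 M-VSM-like cells of the Prox1 line the ratios were 1.23 for Rarb and 1.22 for Rarg. Rarb was held by 1 of these 6 cells, and Rarg by 2, with 67.2% of its counts in 1 of them.

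M-III-like cells had Rara at 101.9 CPM, a ratio of 2.35, with 64.3 CPM in the Prox1 line and 242 CPM in 6 cells of the Nkx3.2 line. Rarg was at 25.7 CPM and Crabp2 at 67.9 CPM in these cells, and Cyp26b1 was at 0. By line, Rarg was at 33.02 CPM in the Prox1 line, from 5 of 17 cells, and at 0 in the 6 Nkx3.2-line cells. In the unnamed clusters Crabp2 was at 57.8 CPM, and in proliferating-like cells at 16.3 CPM. Line and cluster are mixed in these pools. Within the unnamed clusters alone, Rarg was lower in the Nkx2.5 than in the Nkx3.2 line, with a ratio of 0.173, but the 3 clusters of that class held 40, 59 and 14 Nkx2.5-line cells against 28, 8 and 21 Nkx3.2-line cells.

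**Figure D5:**
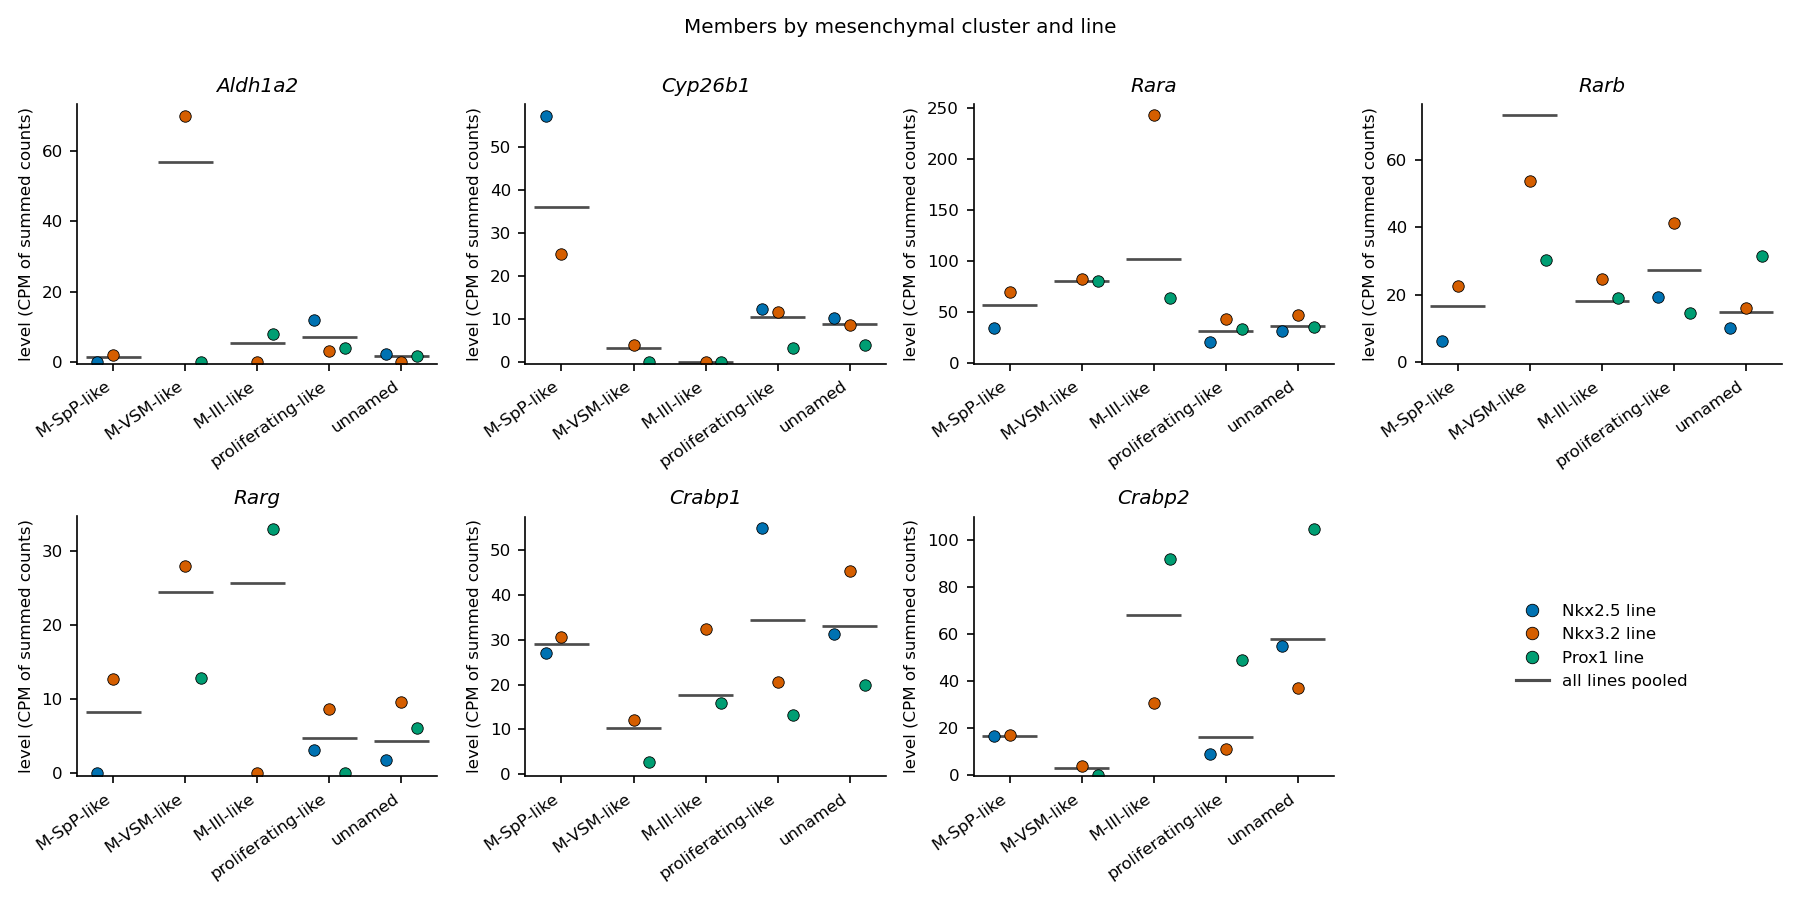
Level of 7 of the genes (CPM of summed counts) by mesenchymal cluster. Points are lines with at least 5 cells of the cluster, and bars are all lines pooled. Cyp26b1 is highest in M-SpP-like cells of both lines shown there, and Crabp2 is lowest in M-VSM-like cells.

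By cell cycle phase, scored from expression, mesenchymal-like cells in G1 (201), S and G2/M (88) had Rarg at 12.5, 4.87 and 2.13 CPM. Crabp2 was at 46.8, 44.7 and 11.4 CPM. Rara was highest in G1, at 58.4, 34.3 and 34.5 CPM, while 61.7%, 63.7% and 63.6% of the cells held it. Cyp26b1 was lowest in G1, at 8.57, 17.7 and 13.02 CPM. The phases held similar shares of each line, as 85 Nkx2.5-line, 80 Nkx3.2-line and 36 Prox1-line cells were in G1.

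The rest of the pathway was read from a list of 28 other genes of retinoid transport, oxidation and co-regulation and a list of 18 known or reported targets. Rdh10, which carries out the first oxidation step from retinol, was at 275 CPM in mesenchymal-like cells, 48.2 in mesothelial-like, 4.5 in epithelial-like and 11.7 in endocrine-like cells. Dhrs3, which reduces retinaldehyde back to retinol, was at 129.4 CPM in mesothelial-like, 10.8 in epithelial-like and 1.19 in mesenchymal-like cells. Rdh10 was thus highest in the mesenchyme, and Aldh1a2 and Dhrs3 in the mesothelium. Dhrs4, another retinoid oxidoreductase gene, was at 153.3 CPM in epithelial-like, 89.6 in mesothelial-like and 100.9 in mesenchymal-like cells. In the mesothelium against the mesenchyme of the Nkx3.2 line, 2 of 19 other retinoid genes tested were called higher (Dhrs3 and Rxra, the latter at 44.7 against 20.2 CPM) and 3 lower (Rdh10, Rxrg and Nrip1), near the 11.8% and 12% of all genes, with a median log2 ratio of -0.20 beside 0.01 over all genes tested. Of 13 targets tested, 4 were called higher and 2 lower, with a median of 0.04. Tgm2, a transglutaminase known as a retinoic acid target, was at 474 CPM against 0, and Gata4 at 59.05 against 0.0133 CPM.

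In the epithelium against the mesenchyme of the Prox1 line, 5 of 22 other retinoid genes tested were called higher and 2 lower, beside 12.4% and 11.3% of all genes, with a median log2 ratio of -0.02 beside 0.00 over all genes. Rbp4, the retinol carrier of plasma, was at 224 against 0.848 CPM, Rxrg at 61.6 against 3.51 CPM and Bco1 at 22.7 against 0.727 CPM, whereas Rdh10 was at 4.5 against 169.05 CPM and Stra6, the retinol uptake receptor, at 2.73 against 43.6 CPM. Of 13 targets tested, 2 were called higher (Tgm2 and Gata4) and 8 lower, with a median of -3.45. Among those lower were the Hox genes Hoxa2, Hoxb2, Hoxb4 and Hoxb5 together with Nr2f1, Nr2f2 and Meis1, of which Nr2f2 was at 8.73 against 744 CPM.

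In endocrine-like against other epithelial-like cells, 4 of 21 other retinoid genes tested were called higher and 6 lower, beside 14.4% and 17.1% of all genes, with a median log2 ratio of -0.12 beside -0.10. Rbp4 was at 4116 against 224 CPM, Fabp5 at 6.79 against 182.3 CPM and Rxrg at 0.191 against 61.6 CPM. Of 8 targets tested, 1 was called higher and 2 lower, with a median of -0.35, and Tgm2 was at 0 against 97.7 CPM. Between the Nkx2.5 and Nkx3.2 lines, 3 of 18 other retinoid genes were called, beside 3.9% of all genes, with Rdh13 at 168.9 against 67.1 CPM and Ncoa1 at 21.2 against 10.1 CPM higher and Fabp5 at 84.7 against 244 CPM lower. Of 10 targets tested 0 were called there, and the median log2 ratios were 0.02 for the other retinoid genes and 0.30 for the targets beside 0.01 over all genes. Between the Prox1 and Nkx3.2 lines, 0 of 18 other retinoid genes and 0 of 11 targets were called, beside 3.67% of all genes, with medians of 0.03 and 0.51 beside 0.02.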

How the data were processed

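Reads of the single-cell Smart-seq2 libraries were trimmed by the authors with Trim Galore 0.6.5 and quantified with kallisto on GRCm38, per the labels. The deposited values are estimated counts per gene and cell, with no normalization. They need not be whole, and were rounded only for clustering, cell cycle scoring and thinning. Following the study's methods, a cell needed 1000 genes, 100000 counts and a mitochondrial share within 30%. Depth per passing cell ranged from 224814 to 1512736 counts. Gene names and positions are from GENCODE M21; which release the authors used is not given in the sources used here.

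Clusters were drawn with Seurat 5.3.0 in R 4.3.3 (20 principal components, resolution 1.9), leaving out the 10 genes and the other retinoid lists, and named from marker lists. No doublet caller was run. Counts were summed per line, plate and state with numpy 2.4.6, pandas 2.3.3 and scipy 1.17.1, and scaled to CPM. A gene at 5 CPM or more in either group was called at a ratio of at least 2 in the pool and in every plate pair (within a line, plates with at least 5 cells of both states). A ratio against 0 used a floor of 3 counts. The call rule, for 2 plates of 1 line, and the exact intervals were tested on simulated data, and the other steps were not. TMM factors (edgeR 4.0.16), thinning to 100000 counts, other filters on cells, other clusterings and leaving out each plate were tried as alternatives.

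The genes and lists were chosen with earlier results of these data known, and the lists of mesenchymal types come partly from the study's own tables of these cells. All 10 genes are named, with the genes of the other lists that were called, at most 8 a comparison by size of ratio, beside some whose levels by state bear on them. The readings by single marker, without the top cell and within the unnamed clusters were added after seeing the data.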

Additional observations from a re-analysis of the deposited data

How the results depend on the processing

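None of the 8 calls changed direction under the alternatives tried, whereas 14 of 34 ratios that were not called lay on both sides of 1, such as Aldh1a2 (0.00324–39.8), Aldh1a3 (0.415–3.51) and Cyp26b1 (0.425–2.10) between the Nkx2.5 and Nkx3.2 lines, and Aldh1a2 (0.124–28.8) and Rarb (0.436–1.96) between the Prox1 and Nkx3.2 lines. No paired analysis was possible because the labels number no embryos or litters and no test was made, though states of 1 line were compared plate by plate. Of values that answer a comparison, 84 stayed near the main value and 31 moved, and TMM factors moved none of them. In the epithelial against the mesenchymal comparison, 2 genes were called, and 4 with no minimum level and a ratio of CPM + 1. The number was 5 without mesenchymal-like cells scored S or G2/M and 4 to 5 when either plate was left out. The count over all genes rose from 2868 to between 4242 and 4471. The setting on phase dropped mesenchymal-like cells alone, so 20 epithelial-like cells scored S and 31 scored G2/M stayed in. In endocrine-like cells, 1 gene was called, 2 with no minimum and 2 without plate 8B, and 3909 genes in all became 6178 to 6340 on a single plate. Between the Nkx2.5 and Nkx3.2 lines, 1 gene was called, 2 without cells scored S or G2/M and 1 to 3 when a plate was left out, and 443 genes in all became 825 to 1681. Between the Prox1 and Nkx3.2 lines, 0 genes were called, 1 when thinned, 1 without cells scored S or G2/M and 0 to 3 when a plate was left out. The 420 genes called in all became 749 without S or G2/M cells, 644 in the unnamed clusters alone and 781 to 1450 when a plate was left out. Leaving out a plate leaves fewer pairs that must pass, which raises these counts. The ratio of Cyp26b1 in M-SpP-like cells, 4.47, was 3.59 at resolution 0.8, 1.31 with 10 principal components and 4.05 to 5.49 when a plate was left out. The causes of the other shifts were not tested. Rarg stayed called between the Nkx2.5 and Nkx3.2 lines in all 13 settings (ratios 0.101–0.239). Crabp2 in the mesothelium lost its call without mesenchymal-like cells scored S or G2/M, at a ratio of 2.31. The mesothelial comparison without plate 7B was not run, since 3 mesothelial-like cells remain. Genes held by few cells, such as Aldh1a2 in the mesenchyme, are limited by the number of cells rather than by reads.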

Other observations

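For Aldh1a3, Rara, Rarb, Crabp1 and Crabp2, each held by at least 20% of mesenchymal-like cells, the genes whose levels ran most nearly alike across mesenchymal-like cells were sought by the mean Spearman correlation within each of 6 plates, over 10496 genes. The highest mean was 0.264, for Crabp2 with Sapcd1, and correlations this weak in sparse counts are no finding.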
